A study of Arabidopsis thaliana with 30 samples.

Results

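The genes described here are 9 alpha-expansins expressed in growing leaves, EXPA1, EXPA3, EXPA4, EXPA5, EXPA6, EXPA8, EXPA10, EXPA11 and EXPA16. They were taken by gene name, and they are 9 of the 34262 genes counted. Another 16 alpha-expansins serve as a comparison. Transcripts were counted in Arabidopsis thaliana, accession Col-0, in tissue labelled leaf at bolting, in mutant plants and in wild type without heat, and the 30 libraries form 10 groups of 3. With 12 h of light per day, hda6 and cue1 share one wild type and sal1 has another. With 16 h of light, msh1 and cue1 share one wild type and hda6 has another, so each mutant was compared with the wild type of its own set. The gene HDA6 encodes a histone deacetylase, CUE1 a phosphoenolpyruvate carrier of the plastid envelope, SAL1 a phosphatase that removes the stress-signalling nucleotide PAP, and MSH1 a MutS homologue of plastids and mitochondria. Which mutant alleles were used is not given in the sources here, and the 3 replicates of a group are full siblings per the series' design text, which names the tissue as aboveground parts at bolting or flowering, so the sources differ on whether leaf alone was sampled.

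Expansins are small secreted proteins that loosen plant cell walls without cutting their polymers, mostly at the acidic wall pH set by plasma membrane proton pumps. They act where xyloglucan and cellulose microfibrils touch, which lets a wall under turgor extend. Alpha-expansins form the larger branch of the family, and members are expressed in different cells and phases of organ growth. Repression of EXPA1, EXPA3, EXPA5 and EXPA10 together reduces leaf growth in Arabidopsis, EXPA10 is known from petioles and leaf blades, EXPA1 from guard cells, and EXPA1 and EXPA8 are known targets of HBI1, a basic helix-loop-helix activator of cell elongation.

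The 12 h set with hda6 and cue1 held 32306939 to 33747006 counts in genes per library, with 2.58% to 5.78% of entries assigned to no gene. The other 3 sets held 14417942 to 22334743 counts, with 48% to 49.6% assigned to no gene. Wild-type replicate 2 and cue1 replicate 3 of the first set had the lowest such share of their groups (2.58% and 3.62%) and are named below where they decide a value. CUE1 transcripts fell to 9.47 to 14.4 CPM (counts scaled to library size) in cue1 at 12 h, against 128 to 132 CPM in wild type. HDA6 averaged 25 CPM in hda6 at 12 h, against 28.2 CPM in wild type (log2 change -0.18). At 16 h it averaged 16.2 CPM in hda6, against 25.5 CPM in wild type (log2 change -0.65). SAL1 and MSH1 went the other way: SAL1 stood at 178 to 248 CPM in libraries labelled sal1 and 60.3 to 75.8 CPM in wild type, and MSH1 at 25.4 to 29 CPM in libraries labelled msh1 and 9.92 to 10.5 CPM in wild type. Directions given for sal1 and msh1 are therefore those of libraries with these labels. Leaf mesophyll markers summed to 4050 CPM or more in every library and root hair markers to 16.9 CPM or less, with 2 to 4 of the 5 root hair markers at 0 in each group. The RNA comes from whole tissue, so fewer cells of a type and less RNA per cell cannot be told apart.

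All 9 genes were tested in every comparison. They lie on 3 chromosomes of the TAIR10.1 assembly: EXPA1 (AT1G69530) at chr1:26141726-26143538 and EXPA10 (AT1G26770) at chr1:9259432-9261313 on the plus strand, and on the minus strand EXPA11 (AT1G20190) at chr1:6998335-6999839, EXPA6 (AT2G28950) at chr2:12431338-12433796, EXPA3 (AT2G37640) at chr2:15787523-15790139, EXPA4 (AT2G39700) at chr2:16543832-16545746, EXPA8 (AT2G40610) at chr2:16948791-16950705, EXPA5 (AT3G29030) at chr3:11011262-11013451 and EXPA16 (AT3G55500) at chr3:20574752-20576249. No exon of another gene overlaps them on the opposite strand. Their transcripts are related, but the longest exact stretch that any of them shares with another alpha-expansin is 21 to 33 bases, against reads of 150 bases.

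The promoters of 4 genes are shown because they form 2 pairs: EXPA1 and EXPA10 moved in opposite directions in libraries labelled sal1, and EXPA8 and EXPA11 were the most decreased there and followed each other closely over all libraries (r = 0.941, defined below). Each is the 250 bases before the annotated start, read 5′ to 3′ from the RefSeq TAIR10.1 genome, with matches to CATGTG or its reverse complement CACATG in capitals.
EXPA1, chr1:26141476-26141725, plus strand: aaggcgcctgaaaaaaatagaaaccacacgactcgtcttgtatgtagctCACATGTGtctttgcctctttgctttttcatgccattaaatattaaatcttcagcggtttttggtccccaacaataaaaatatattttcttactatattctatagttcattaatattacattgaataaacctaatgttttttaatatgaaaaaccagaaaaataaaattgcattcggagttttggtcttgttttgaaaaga
EXPA10, chr1:9259182-9259431, plus strand: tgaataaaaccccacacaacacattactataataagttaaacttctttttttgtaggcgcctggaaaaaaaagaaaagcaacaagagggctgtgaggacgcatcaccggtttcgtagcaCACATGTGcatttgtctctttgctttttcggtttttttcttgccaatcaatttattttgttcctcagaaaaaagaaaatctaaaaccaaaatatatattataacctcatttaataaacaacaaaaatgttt
EXPA8, chr2:16950706-16950955, minus strand: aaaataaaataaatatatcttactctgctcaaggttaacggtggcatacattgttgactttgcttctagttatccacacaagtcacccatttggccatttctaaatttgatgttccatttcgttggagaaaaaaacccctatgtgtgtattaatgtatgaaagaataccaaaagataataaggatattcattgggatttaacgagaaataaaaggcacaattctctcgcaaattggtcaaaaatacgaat
EXPA11, chr1:6999840-7000089, minus strand: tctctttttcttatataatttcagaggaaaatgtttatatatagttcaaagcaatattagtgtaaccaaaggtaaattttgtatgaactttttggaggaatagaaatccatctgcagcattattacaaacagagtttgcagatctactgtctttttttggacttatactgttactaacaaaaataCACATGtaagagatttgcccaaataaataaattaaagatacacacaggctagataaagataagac
The motif CATGTG is an E-box form bound by some basic helix-loop-helix factors, and it occurs on either strand in 11.1% of the 27443 promoters of the same length. It was found in 3 of the 9 expansin promoters. In EXPA1 and EXPA10 the matches on both strands overlap as CACATGTG, first base at positions -201 and -131 from the start, an arrangement in 0.375% of all promoters, and in EXPA11 there is 1 match at -65. The same pair shares the stretch ctctttgctttttc, whose 14 bases are the longest exact match among the 36 pairs of promoters (the next longest has 12). It begins at -186 in EXPA1 and at -116 in EXPA10. The longest exact transcript stretch that EXPA1 shares with another alpha-expansin, 32 bases, is also with EXPA10. The share of promoters with overlapping matches was counted for this arrangement alone and is a description, with no test behind it. CACGTG, the G-box (6.49% of promoters), and TGGGCC (13.7%), a motif recognised by TCP factors, were in none of the 9 windows on either strand.

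Among wild types the genes had a stable top and bottom. Per kilobase of exon, EXPA1 had the highest mean and EXPA6 the next in all 4 wild-type groups, and EXPA16 had the lowest. In the 12 h wild type of the hda6 and cue1 set, EXPA1 averaged 68.2 ± 21.6 CPM per kb and EXPA6 56.8 ± 5.97 CPM per kb (SD, n = 3), a pair whose ranges overlap. EXPA4 followed at 36.9 ± 3.19 CPM per kb, apart from EXPA6 by more than the SD of either. EXPA5 came next at 30.8 ± 5.46, then EXPA11 at 28.1 ± 4.01, EXPA8 at 26.7 ± 8.71 and EXPA3 at 22.5 ± 4.43 CPM per kb. From EXPA5 to EXPA3, each neighbour lay within 1 SD of the next. EXPA10 at 15.1 ± 3.21 and EXPA16 at 6.85 ± 3.59 CPM per kb closed the order. In the 16 h wild type of the hda6 set EXPA1 stood clear of the rest at 174.6 ± 24.6 CPM per kb, against 77.1 ± 7.87 for EXPA6, and EXPA8 came next at 67.2 ± 9.04 CPM per kb.

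**Figure D1:**
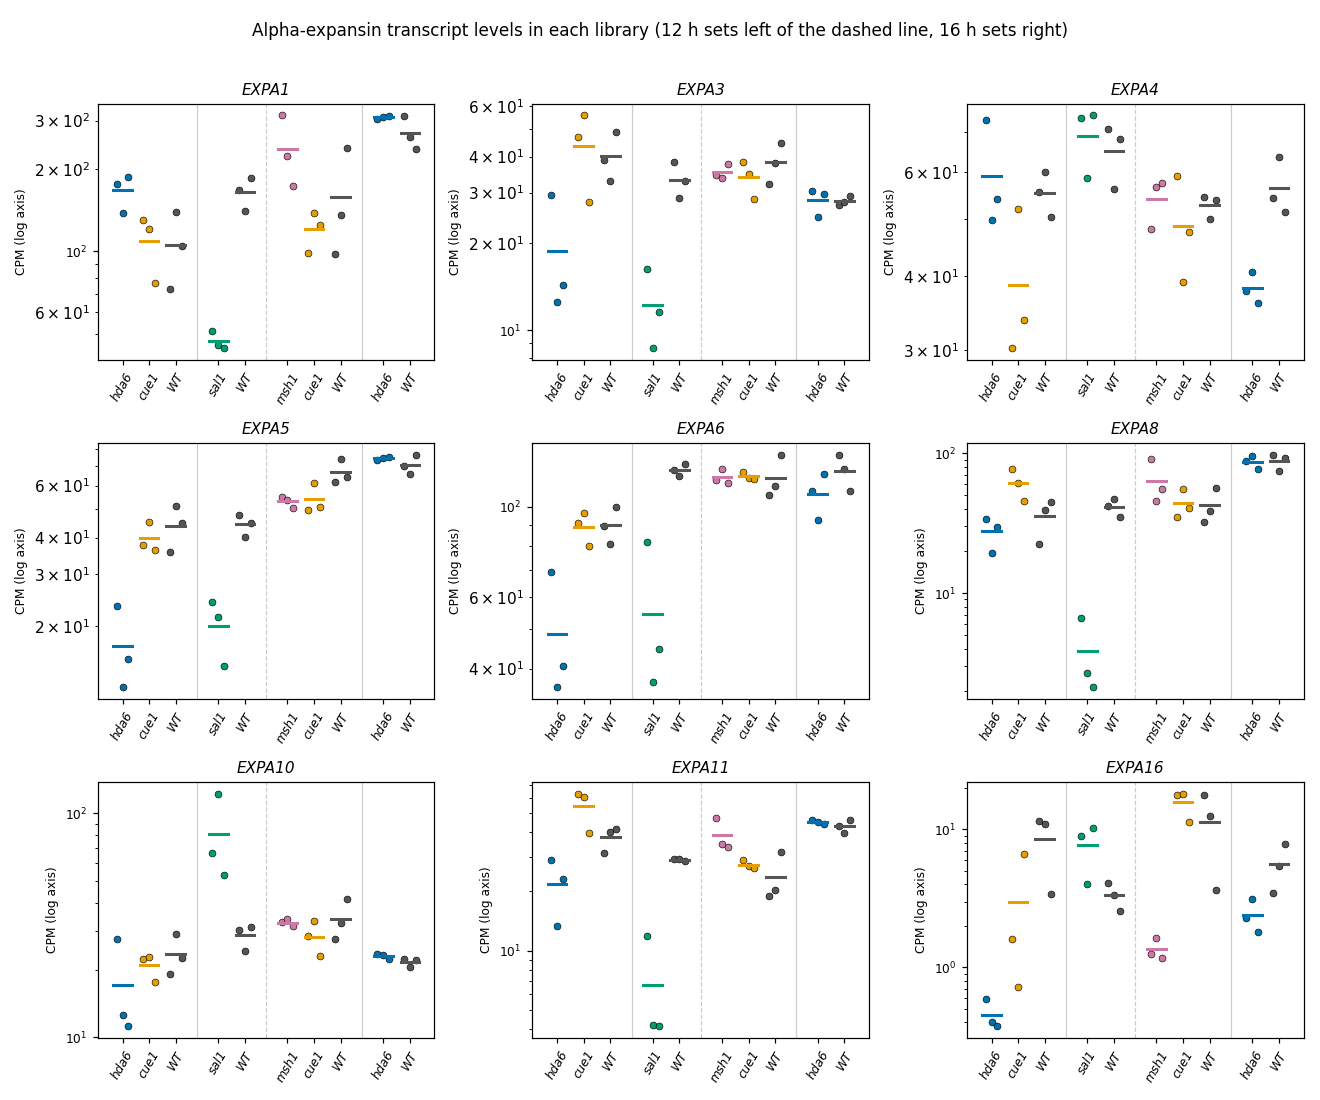
Transcript level of each alpha-expansin in CPM on a log axis, 1 point per library and a line at the mean of 3, with each mutant left of the wild type of its set and a dashed line between the 12 h and 16 h sets. The sal1 points lie below their wild type in 6 panels and above it in EXPA10, and EXPA16 is lowest in hda6 at 12 h, between 0.374 and 0.587 CPM.

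In hda6 at 12 h, 5 of the 9 alpha-expansins fell and none rose, in a comparison that called 19.6% of 20649 genes lower and 22.4% higher (edgeR quasi-likelihood test, adjusted p under 0.05). The median log2 change of the 9 genes was -0.79, beside -0.0047 over all genes tested. EXPA16 had 0.587, 0.402 and 0.374 CPM in hda6, against 11.5, 10.9 and 3.4 CPM in wild type. All 3 hda6 libraries lay far below the lowest wild type, with a log2 change of -4.23 (SE 0.85, adjusted p = 0.00441), or 18.7-fold lower.

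EXPA5, a gene of leaf expansion, had 23.4, 12.5 and 15.5 CPM in hda6 and 35.7, 51.2 and 45 CPM in wild type. The groups did not overlap, and the log2 change was -1.36 (SE 0.22, adjusted p = 0.00163). EXPA6 stood at 69, 36 and 40.7 CPM in hda6, against 89.9, 81.1 and 100.1 CPM in wild type, a log2 change of -0.90 (SE 0.22, adjusted p = 0.00981). EXPA3 had 29.5, 12.5 and 14.3 CPM in hda6 and 38.8, 32.9 and 48.5 CPM in wild type (log2 -1.10, SE 0.35, adjusted p = 0.0311). EXPA11 had 28.9, 13.3 and 23.1 CPM in hda6 and 31.6, 40 and 41.6 CPM in wild type (log2 -0.79, adjusted p = 0.0405). In these genes hda6 replicate 1 was the mutant library nearest to wild type.

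The other 4 genes did not pass the test. EXPA1 had 176.2, 137.8 and 186.6 CPM in hda6, against 72.9, 139.6 and 104.1 CPM in wild type, and the higher mean came with overlapping groups (log2 0.66, SE 0.25, adjusted p = 0.0619). It passed without wild-type replicate 2, the library at 139.6 CPM (adjusted p = 0.0206), with DESeq2 (0.03) and with all 30 libraries in one model (0.0434). EXPA4, EXPA8 and EXPA10 had log2 differences of 0.09, -0.36 and -0.47, and EXPA10 passed without hda6 replicate 1 (adjusted p = 0.00447). The calls of EXPA3 and EXPA11 were lost when single libraries were left out: without wild-type replicate 1 (EXPA3, 0.0592), wild-type replicate 2 (EXPA11, 0.0868), wild-type replicate 3 (0.0962 and 0.108 for EXPA3 and EXPA11), hda6 replicate 2 (0.103 and 0.0935) or hda6 replicate 3 (0.102 and 0.0808). Dividing-cell markers were lower in the same mutant, with 4 of 5 called lower, none at 0 and a summed level of 11.6 to 24.1 CPM in hda6 against 29.2 to 57.3 CPM in wild type. Guard cell markers (1 of 5 called lower and 1 higher, none at 0) summed to 44.2 to 49 CPM in hda6 and 60.9 to 67 CPM in wild type. Of the mesophyll markers 1 of 5 was called lower, and of 3 flower markers tested 1 was called higher. Their part in the result was not tested.

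Libraries labelled sal1 at 12 h showed the broadest change: 6 of the 9 genes fell and 2 rose, where 21.3% of 21845 genes were called lower and 25% higher. The median log2 change of the 9 genes was -1.15, beside 0.01 over all genes. EXPA8 had 6.63, 2.69 and 2.11 CPM in libraries labelled sal1, against 41.7, 47.1 and 34.9 CPM in wild type. Every wild-type library held several times the level of every mutant one, and the log2 change was -3.41 (SE 0.37, adjusted p = 0.00031), or 10.6-fold lower. EXPA11 had 11.8, 4.16 and 4.11 CPM in libraries labelled sal1 and 29.3, 29.2 and 28.7 CPM in wild type, a log2 change of -2.09 (SE 0.37, adjusted p = 0.00279). EXPA1, the most abundant of the 9 in wild type, had 51.2, 45.4 and 44.3 CPM in libraries labelled sal1 and 167.7, 139.8 and 185.7 CPM in wild type. Its replicates were close together and far from wild type, with a log2 change of -1.78 (SE 0.12, adjusted p = 4.15e-05). For EXPA8 and EXPA11, sal1 replicate 1 was the highest mutant library, and without it the log2 changes were -4.06 and -2.77.

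EXPA3, EXPA5 and EXPA6 fell by similar amounts, with log2 changes of -1.42 (SE 0.21), -1.11 (SE 0.17) and -1.15 (SE 0.25) and adjusted p of 0.00148, 0.00156 and 0.0078. EXPA6 spanned 37 to 81.9 CPM in libraries labelled sal1, below the 118.9 to 127.2 CPM of wild type. EXPA10 went the other way, with 66.3, 122.5 and 52.9 CPM in libraries labelled sal1, against 30.3, 24.4 and 31.2 CPM in wild type. The groups did not overlap, and the log2 change was 1.52 (SE 0.29, adjusted p = 0.00427), or 2.87-fold higher. EXPA16 had 8.93, 4.04 and 10.2 CPM in libraries labelled sal1 and 4.09, 3.32 and 2.57 CPM in wild type. Its groups overlapped through sal1 replicate 2, and the log2 change of 1.25 (SE 0.35, adjusted p = 0.0204) was not called without wild-type replicate 2 (0.0637), wild-type replicate 3 (0.0728) or sal1 replicate 3 (0.0742), nor with all 30 libraries in one model (0.0769). EXPA4 stood at 58.5 to 74.8 CPM in libraries labelled sal1 and 56 to 70.9 CPM in wild type (log2 0.12, SE 0.13, adjusted p = 0.495).

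The make-up of the family differed accordingly. Summed per kilobase, the 9 genes reached 197 ± 26.7 CPM per kb in libraries labelled sal1 and 350 ± 24.3 CPM per kb in their wild type (SD, n = 3). EXPA10 made up 26% ± 11.6 of that sum in libraries labelled sal1 and 5.18% ± 0.33 in wild type. EXPA1 made up 15.5% ± 1.16 in libraries labelled sal1 and 30.2% ± 2.45 in wild type, and EXPA8 1.4% ± 0.73 in libraries labelled sal1 and 8.97% ± 1.92 in wild type. In hda6 at 12 h, EXPA1 held 44% ± 5.87 of the sum, against 23% ± 4.62 in wild type, while the sum itself was 248 ± 55.5 CPM per kb in hda6 and 292 ± 38 CPM per kb in wild type. Dividing-cell markers were also lower in libraries labelled sal1 (4 of 5 called, none at 0, summing to 18 to 33.8 CPM against 34.9 to 71.7 CPM in wild type), and so were mesophyll markers (4 of 5 called, none at 0, 4050 to 6800 CPM against 10300 to 14200 CPM). Of the stem secondary wall markers 1 of 5 was called lower, as was the 1 root hair marker tested. Of the guard cell markers 1 of 5 was called higher, as was 1 of 2 flower markers tested. Their part in the result was not tested.

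**Figure D2:**
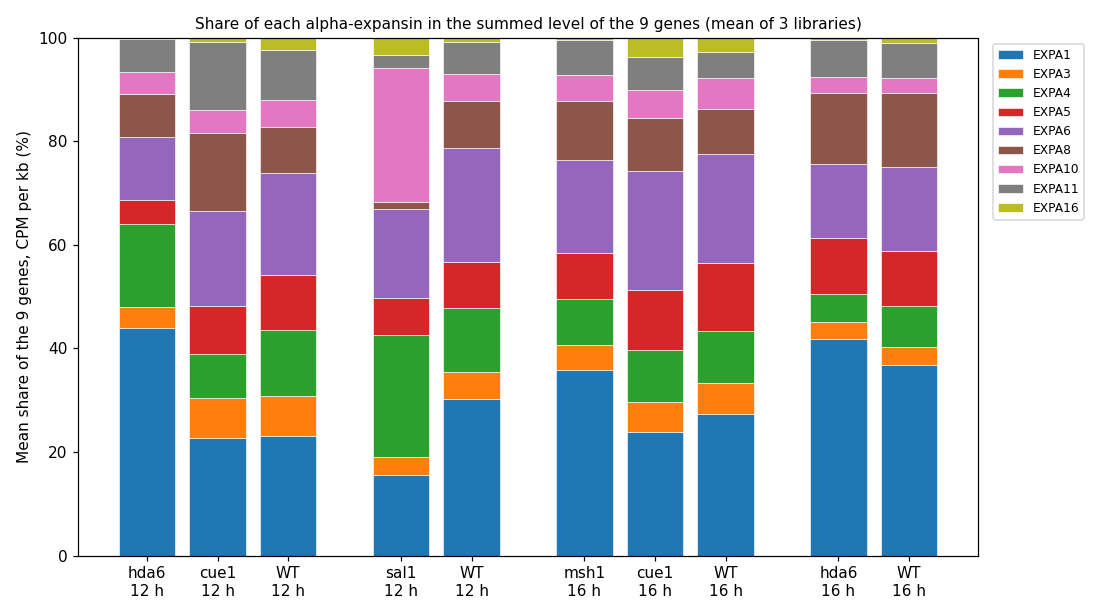
Mean share of each alpha-expansin in the summed level of the 9 genes, in percent of CPM per kilobase of exon, for each group of 3 libraries, with each mutant left of the wild type of its set. EXPA10 fills 26% of the sal1 bar and 5.18% of its wild type, and EXPA1 fills 44% of the hda6 bar at 12 h and 23% of its wild type.

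In libraries labelled msh1 at 16 h, 2 of the 9 genes fell and 1 rose, where 16% of 20785 genes were called lower and 17.4% higher. EXPA16 had 1.26, 1.63 and 1.18 CPM in libraries labelled msh1, against 17.7, 12.5 and 3.65 CPM in wild type. The wild-type libraries varied widely, yet all lay above the mutant ones, and the log2 change was -3.01 (SE 0.50, adjusted p = 0.000901), or 8.07-fold lower. EXPA11 had 47.3, 35 and 33.5 CPM in libraries labelled msh1 and 18.9, 20.4 and 31.7 CPM in wild type (log2 0.72, SE 0.19, adjusted p = 0.0117). EXPA5 had 55.1, 53.7 and 50.3 CPM in libraries labelled msh1 and 61.9, 73.8 and 64.2 CPM in wild type (log2 -0.30, SE 0.10, adjusted p = 0.0396). The changes of these last genes were small and their groups close.

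EXPA11 was not called without wild-type replicate 1 (0.0513), wild-type replicate 2 (0.0568) or msh1 replicate 1 (0.0538), and EXPA5 not without wild-type replicate 2 (0.146) or 3 (0.0544) or any 1 of the msh1 replicates (0.0651 to 0.113). With all 30 libraries in one model neither was called (0.0565 for EXPA11 and 0.148 for EXPA5). EXPA1 had 313.5, 223.2 and 173 CPM in libraries labelled msh1, against 97.8, 136.1 and 237.6 CPM in wild type, with overlap through wild-type replicate 3 (log2 0.61, adjusted p = 0.137). Without that replicate EXPA1 (0.00795) and EXPA8 (0.0317, log2 0.61 with all libraries) passed. Dividing-cell markers were higher in libraries labelled msh1 (4 of 5 called, none at 0, 75.8 to 101 CPM against 52 to 68.2 CPM in wild type), as were flower markers (3 of 5 called, none at 0, 7.95 to 11.1 CPM against 1.2 to 2.86 CPM), and mesophyll markers were lower (3 of 5 called, none at 0, 21400 to 25500 CPM against 26700 to 33300 CPM). Guard cell markers were lower in libraries labelled msh1 too (2 of 5 called, none at 0, 57.2 to 61.5 CPM against 85.9 to 101 CPM in wild type). Their part in the result was not tested.

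In hda6 at 16 h, 2 of the 9 genes fell, where 3.52% of 20495 genes were called lower and 4.49% higher. EXPA4 had 37.7, 40.6 and 36 CPM in hda6 and 54.1, 63.5 and 51.4 CPM in wild type, groups that did not overlap (log2 -0.56, SE 0.10, adjusted p = 0.00168). EXPA16 had 2.29, 3.11 and 1.81 CPM in hda6, against 3.45, 5.43 and 7.88 CPM in wild type (log2 -1.19, SE 0.29, adjusted p = 0.0185). The gap between the nearest libraries of both groups was small for EXPA16, and its call was lost without wild-type replicate 3 (0.107), hda6 replicate 1 (0.0762) or hda6 replicate 3 (0.11). With all 30 libraries in one model neither EXPA4 (0.0551) nor EXPA16 (0.307) was called. EXPA1, at 305.4 to 312.4 CPM in hda6 and 236.8 to 311.7 CPM in wild type, was not called (log2 0.20, adjusted p = 0.255) but passed without wild-type replicate 1 (0.0452). The remaining 6 genes lay between -0.18 and 0.09 in log2 difference. Root hair markers summed to 15.2 to 16.9 CPM in hda6, against 3.75 to 4.38 CPM in wild type. Of these 5 markers 1 was tested and called higher, and 2 were at 0 in hda6. Their part in the result was not tested.

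The cue1 mutant showed no called alpha-expansin at either day length. At 12 h, edgeR called 0 of the 9 genes and DESeq2 0, with 2 at an unadjusted p under 0.05, where 0.542% of genes were called lower and 1.3% higher. EXPA8 had 77, 61.9 and 45.3 CPM in cue1, against 22.4, 39.2 and 44.6 CPM in wild type (log2 0.79, SE 0.29, adjusted p = 0.212), and EXPA4 had 30.2, 51.9 and 33.7 CPM in cue1 and 55.6, 60 and 50.4 CPM in wild type (log2 -0.52, SE 0.21, adjusted p = 0.257). EXPA16 was the most scattered, at 1.6, 0.719 and 6.68 CPM in cue1 and 11.5, 10.9 and 3.4 CPM in wild type (log2 -1.52, SE 0.70, adjusted p = 0.321). In both groups the replicate that stood apart for EXPA16 was replicate 3.

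At 16 h, edgeR called 0 of the 9 genes in cue1 and DESeq2 0, with 1 at an unadjusted p under 0.05, where 3.42% of genes were called lower and 3.34% higher. That gene was EXPA5, with 49.6, 61.3 and 50.9 CPM in cue1, against 61.9, 73.8 and 64.2 CPM in wild type. Its groups did not overlap by a narrow margin (log2 -0.29, SE 0.10, adjusted p = 0.11), and it passed without cue1 replicate 2 (0.0315). EXPA16 had 17.7, 18.1 and 11.4 CPM in cue1, against 17.7, 12.5 and 3.65 CPM in wild type (log2 0.50, SE 0.40, adjusted p = 0.491), the highest group mean of this gene in the study at 15.7 ± 3.8 CPM (SD, n = 3).

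**Figure D3:**
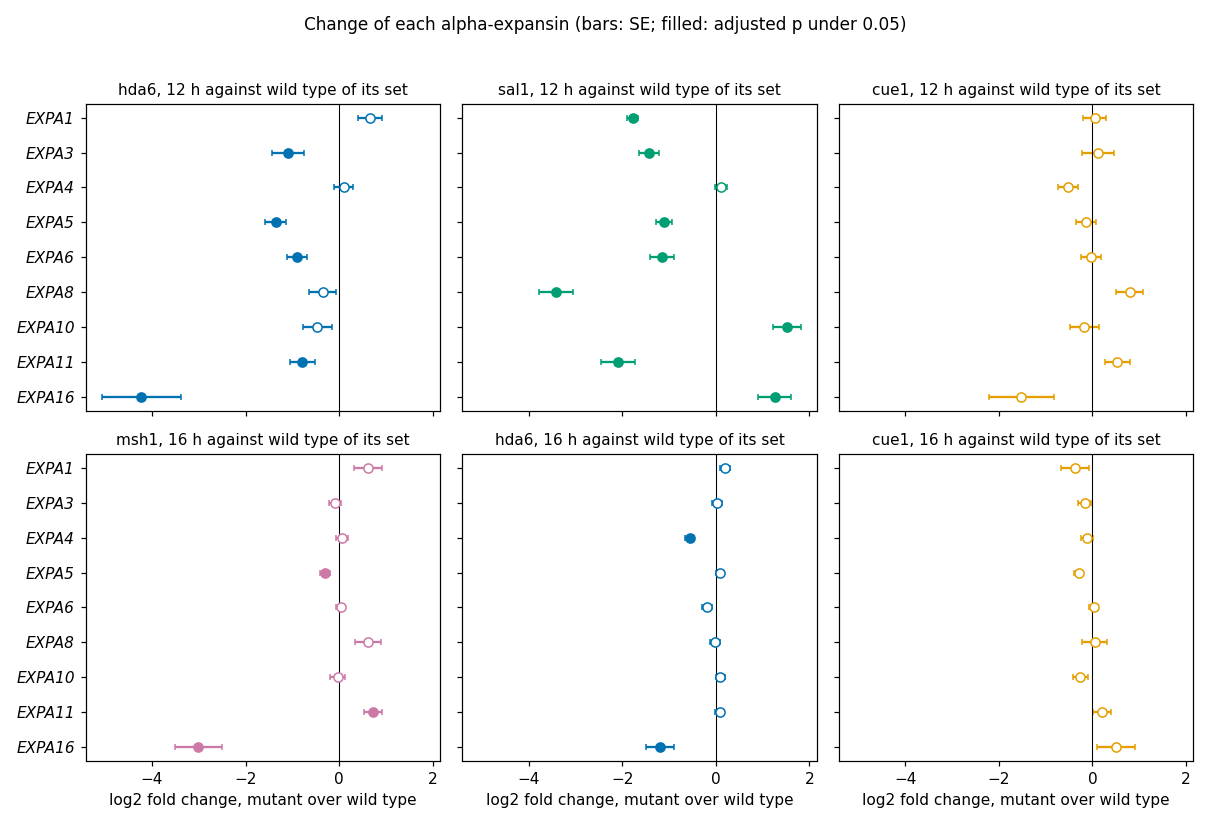
Log2 fold change of each alpha-expansin, mutant over the wild type of its set, with SE as bars and filled points for adjusted p under 0.05 in edgeR. EXPA16 is the leftmost point in hda6 at 12 h (-4.23) and in libraries labelled msh1 (-3.01), EXPA8 in libraries labelled sal1 (-3.41), and no point is filled for cue1.

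Mutants of one set were also set against each other. At 12 h, hda6 had 6 genes lower and 1 higher than cue1, where 21.7% of genes were called lower and 23.6% higher. EXPA5 had 23.4, 12.5 and 15.5 CPM in hda6 and 37.8, 45.2 and 36.4 CPM in cue1 (log2 -1.22, SE 0.22, adjusted p = 0.00232). EXPA11 had 28.9, 13.3 and 23.1 CPM in hda6, against 62.9, 60.6 and 39.6 CPM in cue1 (log2 -1.32, SE 0.27, adjusted p = 0.0043). EXPA8 had 34, 19.3 and 29.6 CPM in hda6 and 77, 61.9 and 45.3 CPM in cue1 (log2 -1.15, SE 0.29, adjusted p = 0.0117). In all of these the mutants did not overlap. EXPA6 (log2 -0.88, adjusted p = 0.00996), EXPA3 (-1.21, 0.0195) and EXPA16 (-2.71, 0.0288) were also lower in hda6, and EXPA4 was higher (0.61, 0.0386).

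The calls of EXPA6 and of the genes given with their libraries held in every alternative run, while those of the others did not. Leaving out 1 library ended the call of EXPA3 (cue1 replicate 1, 0.0512, or 2, 0.0629, hda6 replicate 2, 0.0674, or 3, 0.0689), of EXPA4 (cue1 replicate 1, 0.122, or 3, 0.112, hda6 replicate 1, 0.128, or 3, 0.0568) and of EXPA16 (cue1 replicate 3, 0.129, hda6 replicate 1, 0.0573, 2, 0.0846, or 3, 0.0841). EXPA10, at a log2 difference of -0.30, passed without hda6 replicate 1 (0.00906), and no other gene gained a call from leaving out 1 library. EXPA1 was higher in hda6 without overlap (log2 0.62, adjusted p = 0.0739) and passed with DESeq2 (0.0364). Without cue1 replicate 3 the log2 difference of EXPA16 was -1.35, in place of -2.71. Marker lists differed between the same mutants. Dividing-cell markers were lower in hda6 (4 of 5 called, none at 0, 11.6 to 24.1 CPM against 31.5 to 57.9 CPM in cue1), and so were mesophyll markers (5 of 5 called, none at 0, 13100 to 16500 CPM against 21600 to 27300 CPM). Of the guard cell markers 3 of 5 were called lower in hda6 and 1 higher, none at 0, with sums of 44.2 to 49 CPM in hda6 and 56.6 to 85.4 CPM in cue1. Their part in the result was not tested.

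At 16 h, libraries labelled msh1 had 1 gene lower and 1 higher than cue1, where 11.8% of genes were called lower and 10.2% higher. EXPA16 had 1.26, 1.63 and 1.18 CPM in libraries labelled msh1 and 17.7, 18.1 and 11.4 CPM in cue1, with a wide gap between the groups (log2 -3.51, SE 0.49, adjusted p = 0.00108). EXPA1 had 313.5, 223.2 and 173 CPM in libraries labelled msh1, against 98.7, 137.4 and 124.7 CPM in cue1 (log2 0.99, SE 0.30, adjusted p = 0.0366). The EXPA1 groups did not overlap, but the call was lost without cue1 replicate 1 (0.106) or 3 (0.0814) or msh1 replicate 1 (0.133) or 2 (0.071), and with DESeq2 (0.0502). EXPA11 was higher in libraries labelled msh1 without overlap (log2 0.51, adjusted p = 0.0692) and passed with DESeq2 (0.0434). EXPA5, called lower than wild type in libraries labelled msh1 and not in cue1, was at the same level in both mutants (log2 -0.009, adjusted p = 0.96). Its lower level is therefore not particular to libraries labelled msh1. Dividing-cell markers were higher in libraries labelled msh1 (3 of 5 called, none at 0, 75.8 to 101 CPM against 53.5 to 68.6 CPM in cue1). Of the flower markers 1 of 5 was called higher, and of the mesophyll markers 1 of 5 was called lower. The part of these markers in the result was not tested.

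The hda6 effect was tested for a difference between day lengths, 16 h minus 12 h. It was called for 5 of the 9 genes, 4 with a positive difference and 1 with a negative one, where 12.9% of 21913 genes were called in each direction. The log2 change of EXPA16 was -1.19 in the 16 h set and -4.23 in the 12 h set, a difference of 3.03 (SE 0.67, adjusted p = 0.00637). That of EXPA5 was 0.08 at 16 h and -1.36 at 12 h, a difference of 1.45 (SE 0.25, adjusted p = 0.00205). Both differences remained called in all 16 alternatives run. EXPA3 (difference 1.12, adjusted p = 0.0346), EXPA11 (0.88, 0.0379) and EXPA4 (-0.65, 0.0232) were called with less margin. Dividing-cell markers had a positive difference as well (4 of 5 called, median log2 1.48), as had 2 of 5 guard cell and 1 of 5 mesophyll markers. So had the 1 root hair marker that was tested (log2 1.36). Dividing-cell markers summed to 67.7 to 74.6 CPM in hda6 and 61.6 to 76.8 CPM in wild type at 16 h, and their part in the result was not tested.

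Leaving out 1 library ended the call of EXPA4 4 times (0.0572 to 0.0656: 12 h wild-type replicate 3, 16 h wild-type replicate 2, 16 h hda6 replicates 1 and 3), of EXPA3 8 times (0.0612 to 0.087: all but 12 h wild-type replicates 1 and 2, 12 h hda6 replicate 1 and 16 h hda6 replicate 2), and of EXPA11 9 times (0.0505 to 0.0874: all but 12 h wild-type replicate 1 and 12 h hda6 replicates 1 and 2). Without 12 h hda6 replicate 1, EXPA6 (0.00111) and EXPA10 (0.00212) were called as well, and without 12 h wild-type replicate 2 EXPA1 was (0.0304). DESeq2 called EXPA6 too (0.048). For the cue1 effect, edgeR and DESeq2 each called 0 of the 9 genes, and 0 had an unadjusted p under 0.05, where 0.794% of 21163 genes were called in either direction. Each day length is its own set of plants and libraries, so day length and set cannot be told apart.

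Wild types of the same day length differed between sets too. At 12 h, EXPA6 alone of the 9 was called, at 123.2, 118.9 and 127.2 CPM in the wild type of the sal1 set and 89.9, 81.1 and 100.1 CPM in that of the hda6 and cue1 set (log2 0.45, SE 0.11, adjusted p = 0.00501), where 37.4% of 21044 genes were called. At 16 h, 3 genes were called in the wild type of the hda6 set against that of the msh1 and cue1 set, where 20.3% of genes were. EXPA8 had 98.3, 75.5 and 93.3 CPM in the wild type of the hda6 set and 32.3, 38.7 and 56.3 CPM in the other (log2 1.07, SE 0.24, adjusted p = 0.00756). EXPA11 was higher (log2 0.86, SE 0.17, adjusted p = 0.00307) and EXPA10 lower (log2 -0.64, SE 0.17, adjusted p = 0.0175, not called without replicate 3 of the msh1 and cue1 set, 0.0709, or replicate 2 of the hda6 set, 0.0599). Guard cell markers were lower in the wild type of the sal1 set (3 of 5 called), as were mesophyll markers (3 of 5), and 2 of 5 stem secondary wall markers were higher. At 16 h 1 of 5 guard cell markers was lower and 1 of 5 mesophyll markers higher in the wild type of the hda6 set. The 1 flower marker tested was higher there too. Their part in the result was not tested. Leaving out 1 library also added calls here. At 12 h these were EXPA11 without replicate 1 (0.0398), EXPA1 (0.0346) and EXPA10 (0.0453) without replicate 2 and EXPA16 (0.0156) without replicate 3 of the hda6 and cue1 set, and EXPA4 (0.0285) without replicate 2 of the sal1 set. At 16 h they were EXPA3 (0.0353) without replicate 1 and EXPA1 (0.00509) and EXPA16 (0.0392) without replicate 3 of the msh1 and cue1 set. EXPA3 was also called at 16 h with DESeq2 (0.0402) and without the filter on low counts (0.0459).

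The members fell into those that moved together and those that did not. The likeness of genes was measured as Pearson's r of log2 CPM over the 30 libraries, each centred on the mean of its set. It is a description: libraries of a group share their genotype, and depth differs between libraries of a set. EXPA3 and EXPA6 had r = 0.944, EXPA8 and EXPA11 0.941, EXPA6 and EXPA11 0.887 and EXPA3 and EXPA5 0.876. EXPA1 was closest to EXPA8 (0.733) and ran against EXPA16 (-0.66) and EXPA10 (-0.412). EXPA4 stayed between -0.227 and 0.0593 with every other member. The highest r of EXPA10 with any other member was 0.164, with EXPA16, and that of EXPA16 was 0.321, with EXPA5.

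Over 17141 genes, the gene most like EXPA8 was EXPA11 itself and the next was HBI1 (r = 0.928), named above as an activator of EXPA1 and EXPA8. HBI1 had 23.2, 16.9 and 16.8 CPM in libraries labelled sal1, against 72.5, 68.4 and 68.3 CPM in wild type (log2 -1.85, SE 0.13, adjusted p = 3.79e-05). HBI1 was picked by its r over these same libraries, so a fall alongside EXPA8 and EXPA11 is no separate evidence of a link. Its part in their levels was not tested. HBI1 was called in none of the other 5 mutant comparisons with wild type (log2 -0.12 to 0.32). EXPA1 was most like CML42 and GASA6 (both r = 0.894), EXPA4 most like the beta-expansin EXPB3 (0.784), EXPA5 most like ACLA-1, a subunit of ATP-citrate lyase (0.937), and EXPA11 had TUB5, a beta-tubulin, second (0.948). AT5G66310 was among the top 2 of both EXPA3 (0.956) and EXPA6 (0.946).

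**Figure D4:**
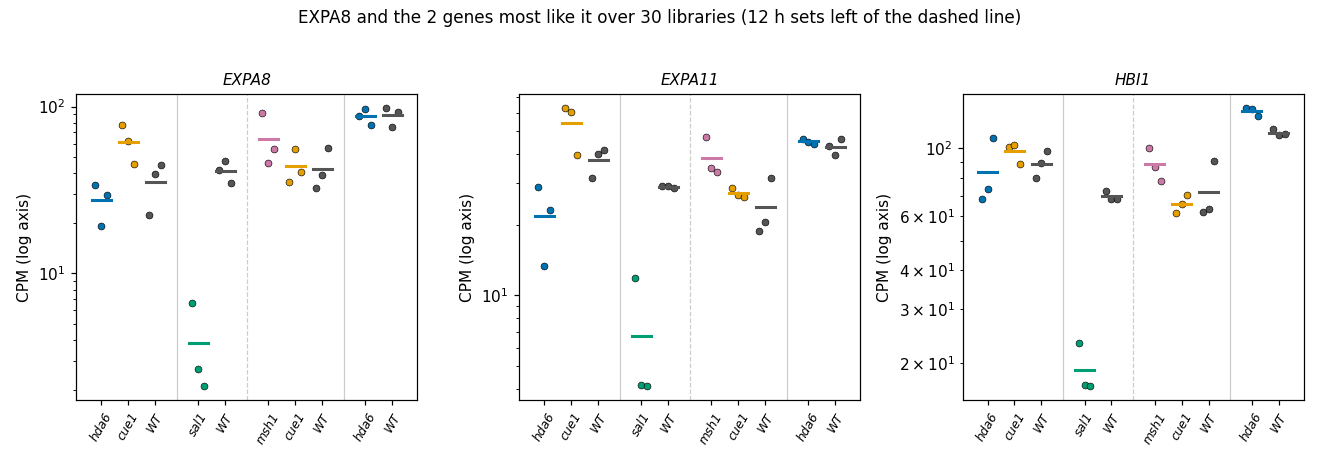
Levels of EXPA8 and of the 2 genes most like it over the 30 libraries, EXPA11 and HBI1, in CPM on a log axis, 1 point per library and a line at the mean of 3, with each mutant left of the wild type of its set. All 3 genes are lowest in libraries labelled sal1, where HBI1 spans 16.8 to 23.2 CPM.

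Among the 16 other alpha-expansins, 5 or 6 were abundant enough to test in a mutant comparison. In hda6 at 12 h, EXPA15 and EXPA13 fell and none rose, of 5 tested (19.6% and 22.4% of all genes). Their log2 changes were -1.33 (adjusted p = 0.0119) and -0.60 (adjusted p = 0.0163). In libraries labelled sal1, EXPA20 and EXPA21 rose and none fell, of 6 tested (25% and 21.3% of all genes). EXPA20 had 24, 23.3 and 23.3 CPM in libraries labelled sal1, against 3.69, 2.89 and 3.7 CPM in wild type (6.98-fold higher, adjusted p = 6.38e-06). Genes on the opposite strand overlap 0.863 of the exon length of EXPA20 and 0.403 of that of EXPA21, so without known strand use in counting the reads of these pairs cannot be told apart. Libraries labelled msh1 had EXPA15 (log2 0.85, adjusted p = 0.00138) and EXPA14 (1.19, 0.0348) higher, where 17.4% of all genes rose. In hda6 at 16 h EXPA15 was lower (-0.53, 0.0129) and EXPA21 higher (1.57, 0.0242), where 3.52% of all genes fell and 4.49% rose. None was called in cue1. Of the beta-expansins and expansin-like genes, 2 of 5 tested fell in hda6 at 12 h and 2 of 6 at 16 h, where 19.6% and 3.52% of all genes fell. EXPB1 was among them at 16 h (log2 -0.74, adjusted p = 0.00313) and 12 h (-2.02, 0.0048). In libraries labelled msh1, EXPB1 alone of 6 fell (-1.24, 0.00309), where 16% of all genes did. In libraries labelled sal1, EXLA1 alone of 6 rose (2.26, 7.38e-05), where 25% of all genes did.

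The primary wall cellulose synthesis genes did not move as the alpha-expansins did in every mutant. In hda6 at 12 h, 7 of 9 fell and none rose (19.6% and 22.4% of all genes). CESA5 (log2 -1.37, adjusted p = 7.76e-05) and CESA6 (-0.98, 0.000379) led. In libraries labelled sal1, none fell and 3 of 9 rose (21.3% and 25% of all genes). Among them were CESA2 (log2 0.95, adjusted p = 0.00241) and CESA5 (0.45, 0.00735). In libraries labelled msh1, 8 of 9 fell (16% of all genes), led by CESA2 (log2 -0.86, adjusted p = 7.1e-05) and CESA5 (-0.82, 0.000157). None was called in cue1 at either day length. In hda6 at 16 h 1 of 9 rose (CESA9, log2 1.21, adjusted p = 0.00307), against 4.49% of all genes.

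The XTH genes, whose products cut and rejoin xyloglucan, were called in both directions, in some comparisons near the share of all genes. In hda6 at 12 h, 4 of 21 tested rose and 9 fell (22.4% and 19.6% of all genes). XTH22 was up (log2 2.17, adjusted p = 0.000575) and XTH6 down (-2.18, 0.000626). In libraries labelled sal1, 4 of 18 rose and 7 fell (25% and 21.3% of all genes). XTH4 (log2 -2.46, adjusted p = 0.000886) and XTH7 (-2.55, 0.00103) came first. Of 19 tested in the 16 h set, 2 rose and 4 fell in libraries labelled msh1 (17.4% and 16% of all genes). In cue1 of that set 0 rose and 6 fell (3.34% and 3.42% of all genes), XTH6 most surely (log2 -1.28, adjusted p = 0.000356). In hda6 at 16 h, 4 of 21 rose and 1 fell (XTH4, log2 -0.70, adjusted p = 3.11e-05), against 4.49% and 3.52% of all genes. In cue1 at 12 h 1 of 21 was lower (XTH24, -0.66, 0.0357), against 0.542% of all genes.

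Proton pumps and the SAUR19 family, whose products raise pump activity, make up a list of 17, of which 15 were tested. In hda6 at 12 h, 2 rose and 7 fell (22.4% and 19.6% of all genes). The pump AHA4 was up (log2 1.69, adjusted p = 0.000176) and the pump AHA11 down (-1.20, 0.00113). In libraries labelled sal1, 5 rose and 3 fell (25% and 21.3% of all genes). The risers were all pumps, such as AHA8 (log2 2.03, adjusted p = 6.32e-06), and the 3 that fell were all SAUR genes. AHA4 rose in hda6 at 16 h as well (log2 1.20, adjusted p = 0.00106). Of the 16 growth regulators, 2 rose and 4 fell in hda6 at 12 h, where 22.4% of all genes rose and 19.6% fell. In libraries labelled sal1, 8 rose and 5 fell (25% and 21.3% of all genes), with GRF3 first (log2 2.54, adjusted p = 2.53e-06). In libraries labelled msh1, 7 rose and 3 fell (17.4% and 16% of all genes), and GIF1 was among those that rose (log2 1.25, adjusted p = 8.92e-05). In cue1 at 16 h, 3 rose and 1 fell (3.34% and 3.42% of all genes). In hda6 at 16 h 1 rose (4.49% of all genes), and in cue1 at 12 h none was called.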

How the data were processed

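The authors used Trim Galore 0.6.6, cutadapt 2.8, STAR 2.7.10a and the build TAIR10, per the submitters' processing notes. Each library has 1 deposited file of raw read counts by gene. How reads were counted and whether strand was used, and which kit made the libraries, is not given in the sources used here. Entries that name no gene were left out of library sizes.

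Each set was fitted by itself with edgeR 4.0.16 in R 4.3.3: low genes were removed with filterByExpr (minimum count 10), library sizes scaled by TMM, and quasi-likelihood p-values were adjusted over all tested genes (Benjamini-Hochberg) and called under 0.05. Interactions were fitted over the 4 groups they involve. Wild types of different sets were compared in one fit of all 4 wild-type groups, of both day lengths. The SE is the absolute log2 change over the square root of F. Printed CPM use TMM over all 30 libraries. Alternatives were DESeq2 1.42.0, other scalings, no filter, a replicate block, other sets of groups, and each library left out. In each set, the edgeR fit and test of a mutant against its wild type were run on simulated counts. The other steps were not tested on simulated data. Coordinates and promoters are from RefSeq TAIR10.1, and figures were drawn with matplotlib 3.10.9.

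The genes, lists, markers and tests were chosen with earlier results of these data known. All 9 members are named, the 2 members of each list with the smallest adjusted p may be, and the 2 genes most like each member among those with at least 5 CPM in a group. Replicates are full siblings, so p-values measure the spread between such plants.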

Additional observations from a re-analysis of the deposited data

Results flagged for a closer look

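The hda6 effect differed between day lengths by the test of the difference itself (16 h minus 12 h, edgeR) in 5 of the 9 alpha-expansins. Of these, 4 differences were positive and 1 was negative, where 12.9% of 21913 genes were called in each direction. The log2 difference was 3.03 for EXPA16 (adjusted p = 0.00637), 1.45 for EXPA5 (0.00205), 1.12 for EXPA3 (0.0346), 0.88 for EXPA11 (0.0379) and -0.65 for EXPA4 (0.0232). The calls of EXPA3, EXPA11 and EXPA4 were lost in 8, 10 and 4 of 16 alternatives. Related lists differed too: 8 of 9 primary wall cellulose synthesis genes were called with a positive difference and 0 with a negative one. Of 21 XTH genes, 8 were positive and 1 negative. Both day lengths were separate sets, with different wild types and with 48% to 49.6% of entries assigned to no gene in the 16 h sets, against 2.58% to 5.78% in the 12 h set, and dividing-cell markers also had a positive difference (4 of 5 called, median log2 1.48). Their part in the differences was not tested.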

How the results depend on the processing

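Of 108 tests of a member in a comparison, 36 were called, and 21 of these remained called in every alternative run. Over all alternatives, 1118 values kept their sign and their side of the threshold, 75 lost a call, 30 gained one and 46 changed sign, none of the last called in either fit. The number of alpha-expansins called went to 1 (main 3) for msh1 and to 0 (main 2) for hda6 at 16 h with all 30 libraries in one model. It went to 2 (main 1) between the 12 h wild types without the filter on low counts, and with the replicate block to 1 (main 2) for msh1 against cue1, where EXPA1 was lost (adjusted p = 0.0564). The block also ended calls of EXPA11 in hda6 at 12 h (0.0631) and of EXPA4 (0.0537) and EXPA16 (0.0747) in hda6 against cue1, and added EXPA6 in the hda6 interaction (0.0411) and EXPA3 between the 16 h wild types (0.0416). It changed no other member's call. Of 24 same-numbered pairs of libraries, 5 had a residual correlation over 0.1 (range -0.401 to 0.151). Every such pair was positive in the sal1 set (0.0745 to 0.151) and in the 16 h hda6 set (0.0335 to 0.11). In the other sets they went both ways. The sources do not state that equal numbers mark a shared origin, so the main fit did not take them as pairs. For the sal1 set and the 16 h hda6 set a shared origin remains possible.

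Leaving out 1 library at a time gave 3 to 6 called members for hda6 at 12 h, 7 to 8 for sal1, 0 for cue1 at 12 h, 0 to 1 for cue1 at 16 h, 1 to 4 for msh1, 1 to 3 for hda6 at 16 h, 4 to 6 for hda6 against cue1, 1 to 2 for msh1 against cue1, 0 for the cue1 and 2 to 7 for the hda6 interaction, and 1 to 3 and 2 to 4 for the wild types at 12 h and 16 h. A further alternative, chosen after seeing the data, left out wild-type replicate 2 and cue1 replicate 3 of the 12 h set with hda6. It kept hda6 replicate 3, whose share assigned to no gene was similar (3.67%). Leaving out both libraries turned EXPA5 (0.0339) and EXPA10 (0.11) positive in cue1 at 12 h. The calls of EXPA11 in hda6 at 12 h (adjusted p = 0.0672) and in the hda6 interaction (0.0505) ended under this alternative, as did those of EXPA4 (0.121) and EXPA16 (0.137) in hda6 against cue1. It added EXPA1 in hda6 at 12 h (log2 0.91, 0.00841) and in the hda6 interaction (-0.70, 0.0304).

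Some log2 differences that were not called changed sign without 1 library. Their lowest and highest values were as follows. In cue1 at 12 h they were -0.16 and 0.30 for EXPA1, -0.11 and 0.35 for EXPA3, -0.0865 and 0.0523 for EXPA6, and -0.30 and 0.0127 for EXPA10. In cue1 at 16 h they were -0.63 and 0.0608 for EXPA1 (main -0.38), -0.26 and 0.0226 for EXPA4, -0.0446 and 0.14 for EXPA6, and -0.16 and 0.32 for EXPA8. In hda6 they were -0.0971 and 0.20 for EXPA4 at 12 h, and at 16 h -0.0405 and 0.11 for EXPA3 and -0.12 and 0.0571 for EXPA8. In msh1 they were -0.21 and 0.0392 for EXPA3, -0.0393 and 0.14 for EXPA6, and -0.17 and 0.15 for EXPA10. In msh1 against cue1 they were -0.0466 and 0.16 for EXPA3, -0.0749 and 0.095 for EXPA5, and -0.0309 and 0.0273 for EXPA6. In the cue1 interaction they were -0.68 and 0.0056 for EXPA1 (main -0.42), -0.0318 and 0.14 for EXPA6, and -0.27 and 0.0881 for EXPA10. Between wild types they were -0.11 and 0.14 for EXPA5 and -0.0207 and 0.42 for EXPA8 at 12 h, and -0.0137 and 0.16 for EXPA6 at 16 h.

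Counts over all genes moved by more than 1.5 times in 4 comparisons with another fit. For cue1 at 12 h (main 381) they went to 1156 with DESeq2, 168 with the block, 656 with all libraries and 166 with only both groups. Without wild-type replicate 2 and cue1 replicate 3 the count there was 50. For cue1 at 16 h (1404) it was 921 with only both groups, and for hda6 at 16 h (1643) 2743 with the block. The count for the cue1 interaction (168) went to 904 with DESeq2 and 18 with the block. Without 1 library the counts spanned 32 to 303, 563 to 1685, 930 to 2125 and 47 to 369 in the same comparisons, and 2614 to 4587 (main 4575) for msh1 against cue1 and 2845 to 3970 (main 4280) between 16 h wild types. Depth and 3 libraries a group limit what can be seen: a member below the threshold may still differ.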
